A study of Mus musculus with 6 samples.

Results

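The 10 genes described here belong to the interleukin network and were measured in CD34hi and CD34lo fibroblasts of the pubertal mouse mammary gland. They were taken from the count table by symbol: the cytokines *Il33*, *Il6* and *Lif*, the IL-6 family receptor subunits *Il6st*, *Osmr* and *Il11ra1*, the IL-4 and IL-13 receptor subunits *Il4ra* and *Il13ra1*, and the receptors *Il1r1* and *Il17ra*. All 10 of the 27179 genes in the table were found, and all 10 were among the 15219 genes with enough counts to be tested. Fibroblasts were sorted as lineage-negative (CD31, CD45 and TER-119), CD24-negative and Pdgfrα-positive cells from female mice aged 6 weeks of the strain FVB/N in the labels (FVB/NJ in the study's methods), and were divided into CD34hi and CD34lo cells. The 6 libraries came from 3 pools of 2 mice, with both populations taken from each pool. Libraries with the same number in the labels were taken to share their animals. The labels name no transgene and no treatment, and the animals of a pool cannot be told apart.

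Interleukins are secreted signals that bind receptors built from several subunits. Cytokines of the IL-6 family bind a private receptor, such as the IL-6 receptor α chain, the IL-11 receptor α chain, the LIF receptor or the oncostatin M receptor, and share the signal transducer gp130, encoded by *Il6st*, which acts through JAK kinases and STAT3. IL-33 is an alarmin of the IL-1 family that is held in the nucleus and is released on cell damage, and its receptor ST2 (*Il1rl1*) is carried by innate lymphoid cells, mast cells and regulatory T cells. IL-4 and IL-13 both signal through IL-4 receptor α paired with IL-13 receptor α1, the type II receptor of non-hematopoietic cells, and activate STAT6. IL-1 receptor 1 and IL-17 receptor A feed into the NF-kB pathway, by which stromal cells make chemokines, *Il6* and *Lif*. Fibroblasts are a known source of IL-33, IL-6 and LIF in many tissues.

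Promoters are shown for the 2 genes with the largest difference between the populations, *Il13ra1* and *Il33*, and for *Il6*, a cytokine that was lowest in mouse pool 3 in both populations. Each is the 250 bases upstream of a transcript start in the RefSeq table for GRCm38.p6, written 5′ to 3′ on the strand of the gene, with matches to a motif in capitals. *Il33* has 2 starts in that table, at chr19:29924863-29925112 and chr19:29945540-29945789, both on the + strand. The *Il6* window lies at chr5:30012864-30013113 and the *Il13ra1* window at chrX:36111858-36112107, both on the + strand.
Il33, first start: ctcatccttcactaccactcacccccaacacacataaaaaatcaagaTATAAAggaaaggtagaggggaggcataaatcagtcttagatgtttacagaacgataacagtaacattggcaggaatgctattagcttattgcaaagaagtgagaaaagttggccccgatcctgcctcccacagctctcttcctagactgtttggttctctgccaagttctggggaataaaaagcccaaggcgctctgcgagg
Il33, second start: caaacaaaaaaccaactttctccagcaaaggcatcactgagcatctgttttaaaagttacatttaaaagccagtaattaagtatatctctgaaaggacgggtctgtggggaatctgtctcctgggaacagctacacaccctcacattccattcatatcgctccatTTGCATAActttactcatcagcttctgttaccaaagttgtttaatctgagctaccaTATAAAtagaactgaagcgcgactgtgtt
Il6: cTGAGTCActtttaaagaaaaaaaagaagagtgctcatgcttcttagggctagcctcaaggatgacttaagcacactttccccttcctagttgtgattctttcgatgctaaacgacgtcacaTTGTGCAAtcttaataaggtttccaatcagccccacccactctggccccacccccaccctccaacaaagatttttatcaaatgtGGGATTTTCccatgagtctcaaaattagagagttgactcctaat
Il13ra1: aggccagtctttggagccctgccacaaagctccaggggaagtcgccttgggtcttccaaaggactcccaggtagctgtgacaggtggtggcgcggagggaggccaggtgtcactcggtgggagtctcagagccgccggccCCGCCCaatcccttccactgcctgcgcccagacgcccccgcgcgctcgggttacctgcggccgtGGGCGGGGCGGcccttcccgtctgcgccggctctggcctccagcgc
The *Il6* window held an NF-kB motif (GGGANNTTC) that began 44 bases upstream of the start, a C/EBP motif (TTGCNNAA) at 128 bases and an AP-1 motif (TGANTCA) at 249 bases. Both strands were searched, and the NF-kB letters were present in 3.23% of 32851 mouse promoters, the C/EBP letters in 9.56% and the AP-1 letters in 6.75%. The windows of the 2 *Il33* starts held a TATA box (TATAAA) at 203 and at 29 bases, letters found in 12.4% of promoters, and the second start also had a C/EBP motif at 85 bases. By contrast, *Il13ra1* had 3 GC boxes (GGGCGG, in 32.7% of promoters) at 110, 46 and 41 bases, the last 2 of which overlap by 1 base. Promoter entries were found for 9 of the 10 genes, *Il17ra* being the exception. Of these 9, 1 matched NF-kB, 3 C/EBP, 2 AP-1, 6 the GC box and 1 the TATA box, while none matched a STAT motif (TTCNNNGAA, in 7.02% of promoters) or a CRE (TGACGTCA, in 1.55%). A match is a run of letters and was not tested for binding.

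Levels are given as CPM, the counts per 1e+06 counts of a library after TMM normalization, and log2 fold changes as CD34hi vs CD34lo. *Cd34*, the antigen of the sort, lay between 2490 and 2639 CPM in the CD34hi libraries and between 476 and 793 CPM in the CD34lo libraries. The fibroblast markers *Dcn* and *Pdgfra* were abundant in every library, with at least 6739 and 637 CPM. All 5 fibroblast markers together summed to 28386 to 31856 CPM in CD34hi and 31503 to 36429 CPM in CD34lo. Of these 5, 1 passed as higher in CD34hi and 3 as higher in CD34lo. The leukocyte marker *Ptprc* did not exceed 0.360 CPM and *Epcam* did not exceed 7.65 CPM. The 6 epithelial markers summed to 34.7 to 41.1 CPM in CD34hi and 68.8 to 69.7 CPM in CD34lo, and 2 passed, higher in CD34lo. For the 5 macrophage markers the sums were 2.57 to 3.20 CPM and 27.3 to 48.6 CPM, and 1 passed, higher in CD34lo. For the 5 pericyte markers they were 133 to 190 CPM and 101 to 197 CPM, with 1 higher in CD34hi and 3 in CD34lo. The part of such cells was not tested. Of the 10 genes, 5 passed an adjusted p-value of 0.05 in edgeR's quasi-likelihood test, adjusted by the Benjamini-Hochberg method (*Il13ra1*, *Il33*, *Lif*, *Il17ra* and *Il4ra*), all higher in CD34hi, against 35.6% of all genes tested in either direction and 16.9% in that direction. In the direction of CD34lo 0 passed in edgeR, limma-voom or DESeq2, and 1 (*Il11ra1*) was under an unadjusted p of 0.05 in edgeR. The libraries of the populations did not overlap for 5 of the 10 genes (*Il33*, *Il4ra*, *Il13ra1*, *Il17ra* and *Il11ra1*), beside 50.1% of all genes tested. The median log2 fold change was 0.57 over the 10 genes and -0.0064 over all genes tested. All are bulk measurements, in which fewer cells of a type and less RNA per cell cannot be told apart. An exact permutation test of 3 libraries against 3 cannot go below p = 0.1, so every p given here comes from the fit across all genes.

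**Figure D1:**
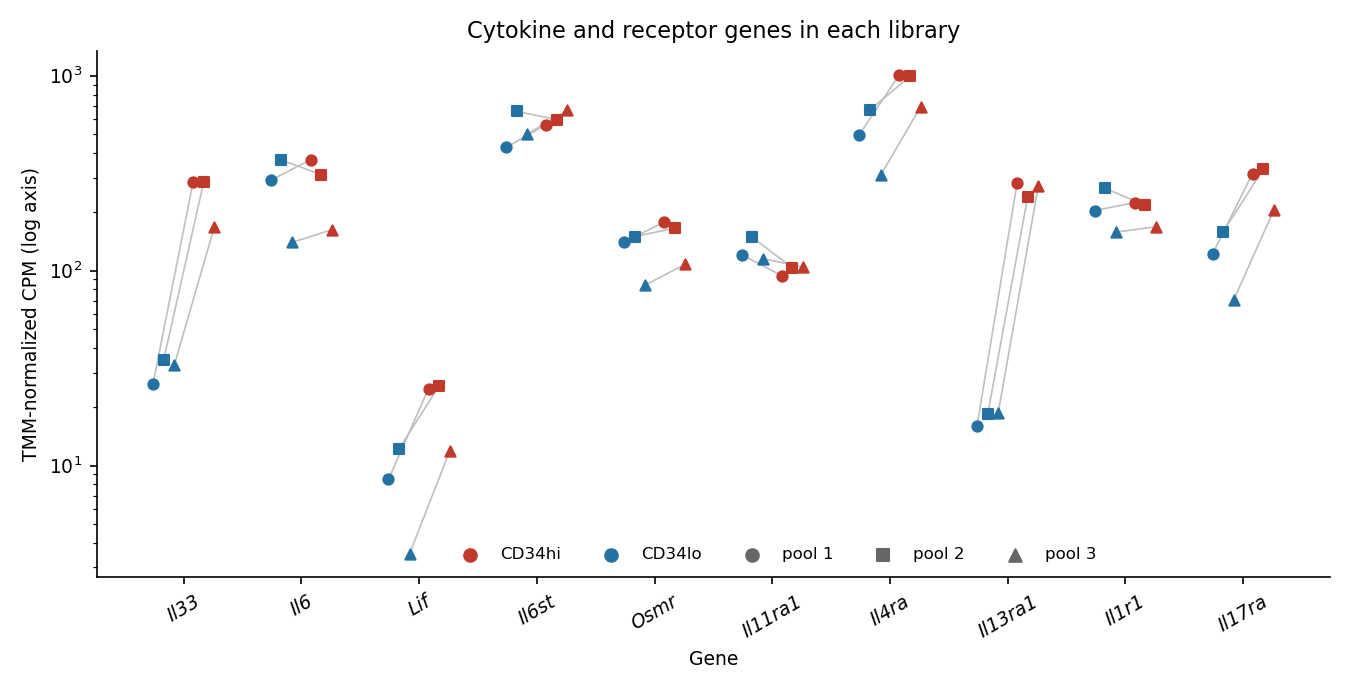
TMM-normalized CPM (log axis) of the 10 genes in each library, with CD34lo in blue, CD34hi in red, pools by symbol shape and a line joining the libraries of a pool. *Il33* and *Il13ra1* stand clearly higher in all CD34hi libraries, while *Il6*, *Il6st* and *Il1r1* overlap and the triangles of pool 3 are lowest in both populations for *Il6*, *Lif*, *Osmr*, *Il4ra*, *Il1r1* and *Il17ra*.

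*Il33* was higher in CD34hi fibroblasts. It had 285, 285 and 167 CPM in CD34hi pools 1, 2 and 3, and 26.3, 34.7 and 32.6 CPM in the CD34lo libraries of the same pools. Every CD34hi library was above every CD34lo library, although CD34hi pool 3 was lower than the other CD34hi libraries. Mean levels were 246 ± 68.0 CPM (SD, n = 3) in CD34hi and 31.2 ± 4.38 CPM (SD, n = 3) in CD34lo, a 7.87-fold difference. On the log2 scale the change was 2.98 (standard error [SE] 0.23, adjusted p = 2.71e-05 by edgeR's quasi-likelihood test), and 4.72% of all genes tested had a change of at least this size. The gene (Gene ID 77125, GRCm38/mm10, chr19:29925114-29960715) had the highest level of the IL-1 family ligands in both populations. *Krt19* (keratin 19), *Rtcb* (an RNA ligase) and *Ugp2* (UDP-glucose pyrophosphorylase) had the patterns most like *Il33* over the 6 libraries, with Pearson's r of log2 CPM of 0.999, 0.999 and 0.998 among 8872 genes, in which the difference between populations is shared by all points.

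*Il18*, the other IL-1 family cytokine that was expressed, differed in the same direction. It had 26.8, 29.9 and 31.7 CPM in CD34hi and 1.35, 1.73 and 1.67 CPM in CD34lo, a log2 fold change of 4.23 (SE 0.16, adjusted p = 1.51e-06 by edgeR's quasi-likelihood test). Of the 9 IL-1 family ligands and antagonists, 3 could be tested: *Il33* and *Il18* rose in CD34hi, and *Il18bp*, the IL-18 binding protein, did not pass (1.00, adjusted p = 0.0779). Those that passed were 66.7% of the 3 tested, beside 35.6% of all genes tested. *Il1a*, *Il1b*, *Il1rn* and the 3 IL-36 genes were too low to test, with no library above 0.243 CPM. The IL-33 receptor gene *Il1rl1* was low in both populations, with 28.9, 23.7 and 21.3 CPM in CD34hi and 23.7, 14.1 and 11.6 CPM in CD34lo. It was higher in CD34hi in each pool, with a log2 fold change of 0.58 (SE 0.25, adjusted p = 0.111), and it passed when pool was a replicate block (0.63, adjusted p = 0.00702). Since *Il33* is also expressed by endothelial cells and keratinocytes, their markers were examined. The keratinocyte markers *Krtdap* and *Krt10* both passed with higher values in CD34hi and summed to between 14.3 and 19.9 CPM there, compared with 3.60 to 7.12 CPM in CD34lo. The 5 endothelial markers, of which 2 passed in each direction, summed to between 535 and 697 CPM in CD34hi and between 55.2 and 97.1 CPM in CD34lo. The endothelial receptor genes *Tek*, with 473 to 647 CPM against 21.9 to 41.9 CPM, and *Kdr*, with 33.9 to 70.9 CPM against 4.57 to 8.16 CPM, were higher in CD34hi. The junction genes *Pecam1* and *Cdh5* were lower in CD34hi, with 3.22 to 10.3 CPM against 12.1 to 18.4 CPM, and 1.97 to 4.33 CPM against 6.69 to 8.71 CPM. T and innate lymphoid cells could carry ST2, and of their 6 markers 3 could be tested and 1 passed. This was *Cd3e*, higher in CD34hi with 13.9 to 16.0 CPM against 1.67 to 5.43 CPM. *Trac*, too low to test, had 0.243 to 0.276 CPM against 0 to 0.0643 CPM, while *Cd3g* did not exceed 0.134 CPM. *Il2rg* went the other way without passing, with 0.313 to 0.717 CPM in CD34hi against 0.498 to 0.719 CPM. *Il7r*, too low to test, did not exceed 0.193 CPM. The part of such cells in the *Il33* and *Il1rl1* values was not tested.

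*Il6* did not differ between the populations beyond the spread of the libraries. Its values were 371, 311 and 162 CPM in CD34hi and 291, 369 and 139 CPM in CD34lo, so that the populations overlapped and both were lowest in pool 3. The log2 fold change was 0.08 (SE 0.38, adjusted p = 0.893 by edgeR's quasi-likelihood test). CD34hi was above CD34lo in pools 1 and 3, by 0.35 and 0.22 on the log2 scale, and below it in pool 2 (-0.25). Per length, *Il6* (Gene ID 16193, chr5:30013161-30019968) had the highest mean of the 10 genes in both populations, with 259 ± 98.9 RPKM (SD, n = 3) in CD34hi and 245 ± 107 RPKM (SD, n = 3) in CD34lo. *Abtb2*, *Per2* (a clock gene) and *Ets2* (a transcription factor) tracked *Il6* most closely over the 6 libraries, with r of 0.996, 0.993 and 0.990.

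*Lif*, which encodes leukemia inhibitory factor, was expressed at a far lower level but did differ. It had 24.8, 25.6 and 11.9 CPM in CD34hi and 8.48, 12.2 and 3.54 CPM in CD34lo. CD34hi was higher within each pool, by 1.55, 1.07 and 1.75 on the log2 scale, whereas the populations overlapped because CD34hi pool 3 (11.9 CPM) was just below CD34lo pool 2 (12.2 CPM). The mean was 20.8 ± 7.71 CPM (SD, n = 3) in CD34hi and 8.07 ± 4.34 CPM (SD, n = 3) in CD34lo, with a log2 fold change of 1.36 (SE 0.43, adjusted p = 0.0361 by edgeR's quasi-likelihood test). This call did not hold without pool 1 (adjusted p = 0.145), nor without CD34hi library 1 (0.0837), CD34hi library 2 (0.101), CD34lo library 1 (0.0818) or CD34lo library 3 (0.0678). With pool as a replicate block the change of *Lif* was 1.44 (SE 0.16, adjusted p = 8.03e-05 by the same test). The gene is at chr11:4257568-4272514 (Gene ID 16878). Over the 6 libraries its closest neighbours were *Bcl3*, an NF-kB cofactor (r of 0.999), *Fkbp8* (0.996) and *Il4ra* (0.995).

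The other ligands of the IL-6 family were scarce. Of 11 ligand genes, 6 could be tested, of which 1 (*Lif*) was higher in CD34hi, 2 were higher in CD34lo and 3 did not pass, with a median log2 fold change of -0.98. Those that passed were 50% of the genes tested, beside 35.6% of all genes. Among the genes higher in CD34lo was *Clcf1*, which encodes a ligand of the CNTF receptor. It had 0.581, 0.221 and 0.198 CPM in CD34hi and 3.34, 1.91 and 2.73 CPM in CD34lo (log2 fold change -2.98, adjusted p = 0.00114). The direction of *Clcf1* was thus opposite to that of *Lif*. *Il11* was between 1.08 and 2.27 CPM in all libraries (-0.63, adjusted p = 0.105).

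The shared receptor chain of the IL-6 family did not pass, while some private chains passed in either direction and others did not pass. *Il6st*, the common transducer, was the most abundant receptor of the family in both populations, with 561, 595 and 666 CPM in CD34hi and 428, 655 and 502 CPM in CD34lo. The populations overlapped, and the log2 fold change was 0.20 (SE 0.17, adjusted p = 0.41 by edgeR's quasi-likelihood test). *Il6ra*, the chain that binds IL-6 itself, had 126, 135 and 98.2 CPM in CD34hi against 17.3, 27.4 and 14.9 CPM in CD34lo, a log2 fold change of 2.59 (SE 0.24, adjusted p = 6.54e-05). Per length, there were between 2.70 and 4.16 *Il6st* for each *Il6ra* in CD34hi and between 14.6 and 20.7 in CD34lo. *Lifr*, the receptor of LIF and a partner of gp130 for several other ligands, went the other way, with 19.8, 18.9 and 36.1 CPM in CD34hi and 53.9, 64.6 and 71.6 CPM in CD34lo (log2 fold change -1.34, SE 0.25, adjusted p = 0.00306). The ratio of *Il6st* to *Lifr* RPKM was therefore higher in CD34hi, between 35.0 and 59.7, than in CD34lo, between 13.3 and 19.2. So CD34hi libraries had more *Lif* and less *Lifr* than CD34lo libraries, and a like amount of *Il6* with more *Il6ra*.

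*Osmr*, the oncostatin M receptor chain, had 177, 165 and 108 CPM in CD34hi and 140, 150 and 84.3 CPM in CD34lo. It was higher in CD34hi within each pool, by 0.34, 0.14 and 0.35 on the log2 scale, but the populations overlapped and it did not pass (0.27, SE 0.25, adjusted p = 0.439 by edgeR's quasi-likelihood test). Its ligand gene *Osm* did not exceed 0.0828 CPM in any library and was too low to test. *Il6st* is at chr13:112464070-112506860 (Gene ID 16195) and *Osmr* at chr15:6813577-6874313 (Gene ID 18414) on the - strand.

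*Il11ra1*, which encodes the IL-11 receptor α chain, was the only one of the 10 genes with all CD34lo libraries above all CD34hi libraries. It had 94.3, 104 and 104 CPM in CD34hi and 121, 148 and 115 CPM in CD34lo. The log2 fold change was -0.35 (SE 0.13), with an adjusted p of 0.0653 by edgeR's quasi-likelihood test. With pool as a replicate block it was -0.34 and passed (adjusted p = 0.0483), which made it the only one of the 10 genes higher in CD34lo. The gene (Gene ID 16157, chr4:41760443-41769473) has close copies on the same chromosome. Over 1299 aligned bases, the *Il11ra2* transcript differed from that of *Il11ra1* at 13 positions, an identity of 99.0%, and the longest identical run was 356 bases. The other copy, *Gm13305*, differed at 22 of 1953 positions. A 60-base stretch of coding sequence is shown because it holds the most differences of any stretch of that length in the alignment. It covers coding bases 1030 to 1089 and crosses from one exon to the next, in *Il11ra1* within chr4:41768023-41768179 on the + strand and in *Il11ra2* within chr4:42657304-42657460 on the - strand, with the 3 differing bases in capitals.
Il11ra1: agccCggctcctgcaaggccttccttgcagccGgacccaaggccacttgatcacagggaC
Il11ra2: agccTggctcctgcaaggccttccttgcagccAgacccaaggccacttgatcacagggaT
Reads that fall between such positions fit both genes, and how the counting treated them is not given in the sources used here. *Il11ra2* was counted at 6.13, 6.73 and 6.46 CPM in CD34hi and 8.45, 10.5 and 7.01 CPM in CD34lo (-0.42, adjusted p = 0.101). Summing the counts of all 3 copies gave a log2 fold change of -0.35 (adjusted p = 0.0719). *Il11ra1* also overlaps *Ccl27a* on the opposite strand, where 389 counts were assigned in all, compared with 26930 for *Il11ra1*.

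Of the 8 receptor subunit genes of the IL-6 family, all were tested, 2 were higher in CD34hi, 3 were higher in CD34lo and 3 did not pass. Those that passed were 62.5% of the 8, beside 35.6% of all genes tested. Beside *Il6ra*, the IL-31 receptor gene *Il31ra* was higher in CD34hi, with 14.9, 38.1 and 28.3 CPM against 3.12, 7.91 and 6.49 CPM (2.23, adjusted p = 0.00283 by edgeR's quasi-likelihood test). Beside *Lifr*, the low genes *Cntfr* (-2.97, adjusted p = 0.0055) and *Il27ra* (-1.63, adjusted p = 0.000492) were higher in CD34lo, and *Il27ra* overlaps *Palm3* on the other strand. *Cntfr* and its ligand gene *Clcf1* were thus both higher in CD34lo, at no more than 3.60 CPM.

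**Figure D2:**
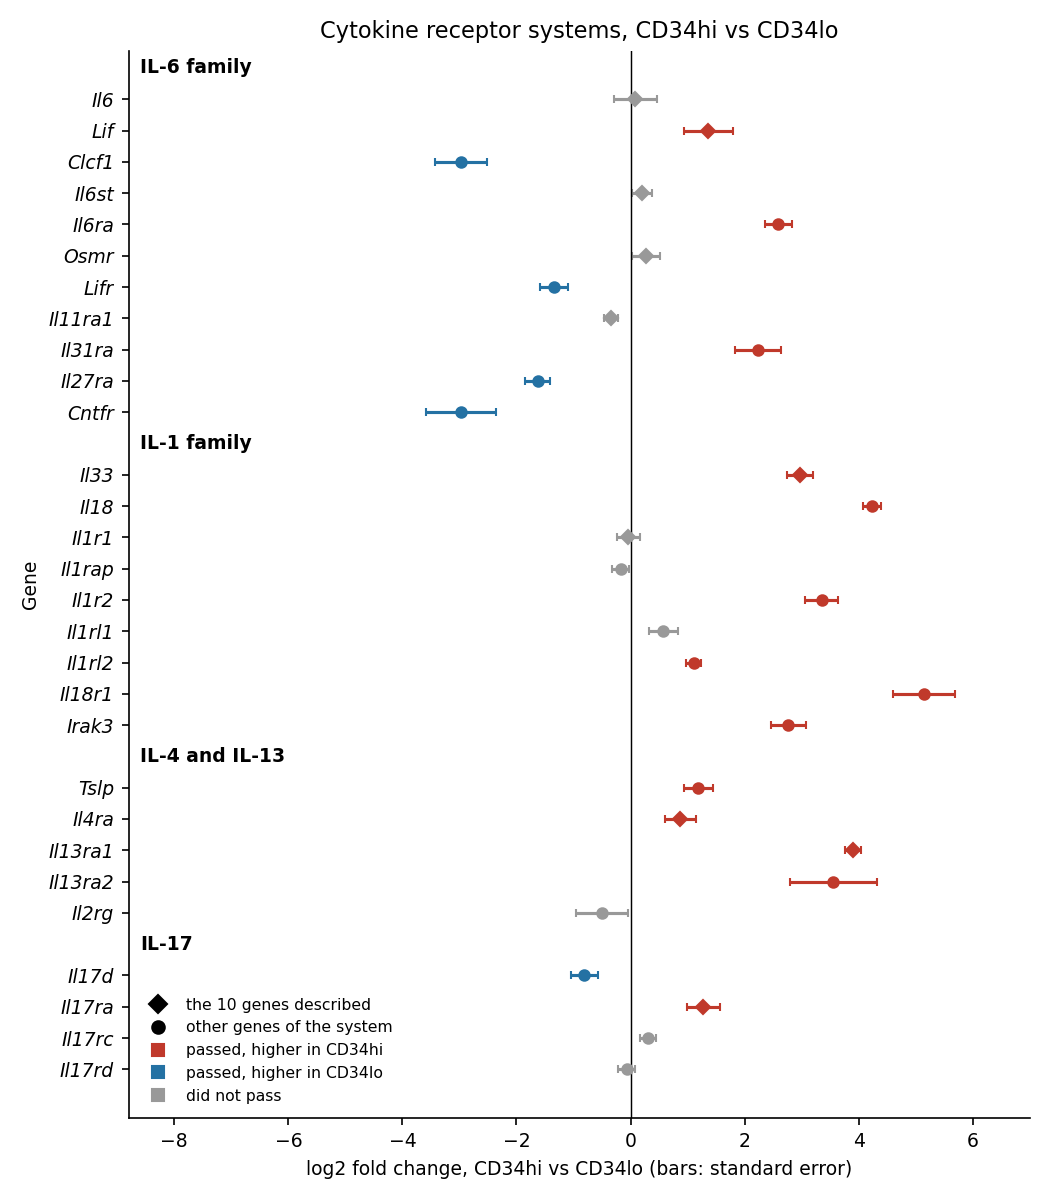
Log2 fold change (CD34hi vs CD34lo) of the 10 genes (diamonds) and of other genes of the same cytokine systems (circles), with bars for the standard error and colour for the direction of genes that passed. Within each system, genes to the right, such as *Il13ra1* (3.90) and *Il33* (2.98), stand beside genes at or left of 0, such as *Il1r1* (-0.04) and *Lifr* (-1.34).

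*Il13ra1* had the largest difference of the 10 genes. Its values were 281, 239 and 272 CPM in CD34hi and 16.0, 18.3 and 18.7 CPM in CD34lo, so the lowest CD34hi library was far above the highest CD34lo library. Means were 264 ± 22.0 CPM (SD, n = 3) and 17.6 ± 1.45 CPM (SD, n = 3), a 15-fold difference with little spread. The log2 fold change was 3.90 (SE 0.14, adjusted p = 1.45e-06 by edgeR's quasi-likelihood test), and 2.23% of all genes tested changed by at least as much. The values within pools were 4.14, 3.71 and 3.86 on the log2 scale. The gene (Gene ID 16164) is at chrX:36112139-36171262.

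*Il4ra*, the chain that both IL-4 receptors use, was higher in CD34hi by a smaller step. It had 1011, 991 and 690 CPM in CD34hi and 499, 667 and 308 CPM in CD34lo, with the lowest CD34hi library only slightly above the highest CD34lo library. Within pools, CD34hi was higher by 1.02, 0.57 and 1.16 on the log2 scale. The log2 fold change was 0.87 (SE 0.27, adjusted p = 0.0368 by edgeR's quasi-likelihood test). The call was lost without pool 1 (adjusted p = 0.160), without CD34hi library 1 (0.0854) or 2 (0.102), and without CD34lo library 1 (0.0805) or 3 (0.0760). With pool as a replicate block the change of *Il4ra* was 0.92 (SE 0.15, adjusted p = 0.00098 by the same test). Because the 2 chains differed by unequal amounts, their ratio changed: per length, *Il4ra* exceeded *Il13ra1* by between 1.84-fold and 3.00-fold in CD34hi and by between 11.9-fold and 26.4-fold in CD34lo. *Il4ra* (Gene ID 16190) is at chr7:125552282-125579474.

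Of 9 receptor subunit genes of type 2 cytokines, 6 could be tested, and 50% of these passed, beside 35.6% of all genes tested. In all, 3 were higher in CD34hi, with a median log2 fold change of 0.54. The third was *Il13ra2*, which encodes a decoy receptor for IL-13, with 0.581, 0.552 and 0.573 CPM in CD34hi and 0.0184, 0 and 0.129 CPM in CD34lo (3.56, SE 0.76, adjusted p = 0.00644 by edgeR's quasi-likelihood test). At this level the CD34lo libraries held only 1, 0 and 4 counts, and without pool 1 the adjusted p was 0.0585. *Il2rg*, the common γ chain that completes the type I IL-4 receptor, did not exceed 0.719 CPM in any library (-0.50, adjusted p = 0.434). The IL-4, IL-5, IL-9, IL-13 and IL-25 genes were too low to test, with no library above 0.216 CPM. *Tslp*, which encodes thymic stromal lymphopoietin, was the type 2 cytokine gene that could be tested and was higher in CD34hi, with 5.39, 5.30 and 3.86 CPM against 2.64, 1.62 and 2.06 CPM (1.19, adjusted p = 0.00621), a call that was lost without pool 2 (adjusted p = 0.0624). In these libraries *Il33* and *Tslp*, a pair of epithelial and stromal alarmins, were higher in CD34hi together with *Il13ra1* and *Il4ra*.

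*Stat6*, the transcription factor downstream of this receptor, was higher in CD34hi, with 92.4, 98.2 and 104 CPM against 55.6, 70.1 and 59.1 CPM (0.67, SE 0.12, adjusted p = 0.00283 by edgeR's quasi-likelihood test). It overlaps *Nab2* on the other strand, which held 10782 counts against 19210 for *Stat6*. Of 9 genes known to respond to STAT6 in one cell type or another, 1 was higher in CD34hi (*Il13ra2*), 4 were higher in CD34lo and 4 did not pass, with a median log2 fold change of -0.25. Those that passed were 55.6% of the 9, beside 35.6% of all genes tested. The 4 that were higher in CD34lo were *Postn* (periostin, a matrix protein, -2.59, adjusted p = 3.76e-05), *Vcam1* (an adhesion molecule, -1.27, adjusted p = 0.00195), *Cish* (a STAT feedback inhibitor, -1.15, adjusted p = 0.000707) and *Ccl11* (eotaxin, -0.86, adjusted p = 0.0079, and 0.0784 without pool 2). These 4 differed in the direction opposite to *Il4ra*, *Il13ra1* and *Stat6*, and all of them also respond to other signals.

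*Il1r1*, the signalling receptor of IL-1, did not differ between the populations beyond the spread of the libraries. It had 223, 216 and 168 CPM in CD34hi and 203, 264 and 157 CPM in CD34lo, which overlapped, with pool 3 lowest in both. The log2 fold change was -0.04 (SE 0.20, adjusted p = 0.896 by edgeR's quasi-likelihood test). *Il1r2*, the decoy receptor that binds IL-1 without signalling, had 173, 203 and 214 CPM in CD34hi and 14.3, 29.3 and 14.4 CPM in CD34lo (3.35, SE 0.29, adjusted p = 4.61e-05). Per length, the ratio of *Il1r1* to *Il1r2* was between 0.210 and 0.344 in CD34hi, with more decoy than receptor, and between 2.40 and 3.80 in CD34lo, with more receptor than decoy. *Il1rap*, the accessory chain of IL-1 and IL-33 receptors, did not pass (-0.17, adjusted p = 0.42). *Il1r1* (Gene ID 16177) is at chr1:40225080-40316177.

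Of the 8 receptor genes of the IL-1 family, 7 were tested and 42.9% of these passed, beside 35.6% of all genes tested. In CD34lo 0 were higher, also by limma-voom, by DESeq2 and at an unadjusted p under 0.05 in edgeR, and 3 were higher in CD34hi. Along with *Il1r2* these were the IL-36 receptor gene *Il1rl2*, with 129, 130 and 143 CPM against 53.6, 71.4 and 61.9 CPM (1.11, adjusted p = 0.000281 by edgeR's quasi-likelihood test), and the IL-18 receptor gene *Il18r1*, with 1.86, 1.74 and 2.21 CPM against 0.0738, 0 and 0.0643 CPM (adjusted p = 0.000142). The fitted log2 fold change of *Il18r1* was 5.14, a value that depends on the prior count at so few counts in CD34lo. *Il18*, its receptor *Il18r1*, *Il33* and *Il1r2* were all higher in CD34hi.

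*Il17ra*, the chain common to receptors of the IL-17 family, was higher in CD34hi in every pool. It had 315, 331 and 203 CPM in CD34hi and 121, 158 and 70.7 CPM in CD34lo, without overlap, although both populations were lowest in pool 3. The mean was 283 ± 69.5 CPM (SD, n = 3) in CD34hi and 117 ± 43.9 CPM (SD, n = 3) in CD34lo, a 2.43-fold difference. The log2 fold change was 1.28 (SE 0.29, adjusted p = 0.00908 by edgeR's quasi-likelihood test), and without pool 1 the adjusted p was 0.0530. With pool as a replicate block the change of *Il17ra* was 1.32 (SE 0.13, adjusted p = 3.72e-05 by the same test). *Il17rc*, its partner for IL-17A and IL-17F, had 41.0, 38.9 and 33.5 CPM in CD34hi and 35.5, 27.8 and 28.4 CPM in CD34lo and did not pass (0.30, adjusted p = 0.125). *Il17d* was the ligand gene that passed, higher in CD34lo with 18.6, 19.7 and 13.0 CPM against 12.3, 10.2 and 6.81 CPM (-0.81, adjusted p = 0.0285). The *Il17d* call was lost without pool 1 (adjusted p = 0.0525) or 2 (0.154), without CD34hi library 2 (0.0705) or 3 (0.0601), and without CD34lo library 1 (0.0911) or 2 (0.0838). *Il17a* had no count in any library. *Il17ra* (Gene ID 16172) is at chr6:120463197-120483727.

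**Figure D3:**
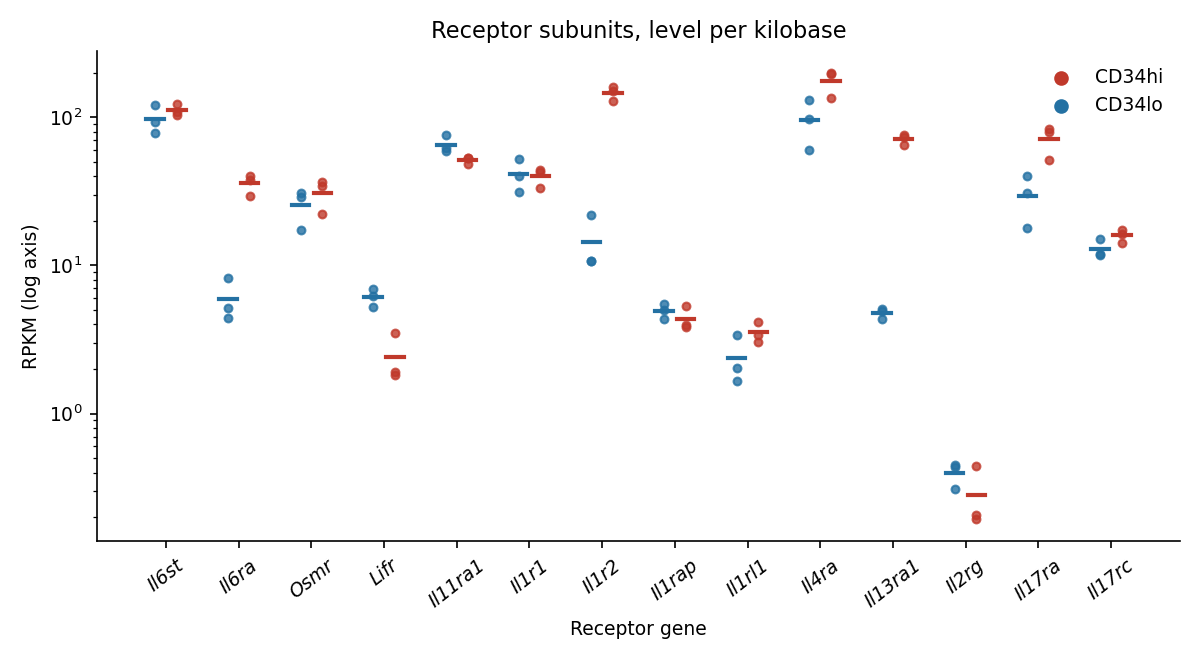
RPKM (log axis) of receptor subunit genes in each library, with CD34lo in blue, CD34hi in red and a bar at the mean of 3 libraries. *Il6st*, *Osmr* and *Il1r1* lie at like levels in the populations, whereas *Il6ra*, *Il1r2*, *Il13ra1* and *Il17ra* are higher and *Lifr* is lower in CD34hi.

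Levels of the genes were set in order per length as RPKM (CPM per kilobase of the gene length in the table), as a description. In CD34hi the order was *Il6* (259 ± 98.9 RPKM, SD, n = 3), *Il4ra* (176 ± 35.3), *Il6st* (111 ± 9.79), *Il33* (94.3 ± 26.1), *Il13ra1* (71.6 ± 5.97), *Il17ra* (71.3 ± 17.5), *Il11ra1* (51.3 ± 2.81), *Il1r1* (40.2 ± 5.96), *Osmr* (31.0 ± 7.68) and *Lif* (5.14 ± 1.91). Among neighbours in that order, the ranges of *Il4ra* and *Il6st*, of *Il11ra1* and *Il1r1*, and of *Osmr* and *Lif* did not overlap, and all other neighbours overlapped. In CD34lo it was *Il6* (245 ± 107), *Il6st* (97.0 ± 21.3), *Il4ra* (96.4 ± 35.2), *Il11ra1* (65.2 ± 8.98), *Il1r1* (41.3 ± 10.6), *Il17ra* (29.4 ± 11.0), *Osmr* (25.7 ± 7.27), *Il33* (12 ± 1.68), *Il13ra1* (4.79 ± 0.393) and *Lif* (2.00 ± 1.07). There the ranges of *Il6* and *Il6st*, of *Il11ra1* and *Il1r1*, of *Osmr* and *Il33*, of *Il33* and *Il13ra1*, and of *Il13ra1* and *Lif* did not overlap. *Il33* and *Il13ra1* held the fourth and the fifth place in CD34hi and the eighth and the ninth in CD34lo, while *Il6* was first and *Lif* last in both.

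The signal transducers used by these receptors were measured next. Of 10 JAK-STAT genes, 3 were higher in CD34hi (*Jak1* and *Stat6* among them), 1 was higher in CD34lo (*Jak3*) and 6 did not pass, with a median log2 fold change of 0.26. Those that passed were 40% of the 10, near the 35.6% of all genes tested. *Jak1*, the kinase bound to gp130 and to IL-4 receptor α, had 889, 891 and 739 CPM in CD34hi and 524, 559 and 336 CPM in CD34lo (0.83, SE 0.20, adjusted p = 0.0121 by edgeR's quasi-likelihood test, and 0.0545 without pool 1). *Stat3*, the main transcription factor of the IL-6 family, had 482, 430 and 346 CPM in CD34hi and 504, 493 and 325 CPM in CD34lo and did not pass (-0.07, adjusted p = 0.808). *Jak3*, the partner of the common γ chain, was low and higher in CD34lo (-1.37, adjusted p = 0.00152). Of 10 STAT3 feedback and target genes, 40% passed, near the 35.6% of all genes tested. Of these, 2 were higher in CD34hi, namely *Lbp* (an acute-phase protein, 1.87, adjusted p = 0.000814) and *Bcl3* (1.07, adjusted p = 0.0313), and 2 in CD34lo, namely *Timp1* (a metalloproteinase inhibitor, -2.04, adjusted p = 0.00136) and *Junb* (an AP-1 subunit, -0.84, adjusted p = 0.00445). The *Bcl3* call was lost without pool 1 (adjusted p = 0.130), without CD34hi library 1 (0.0766) or 2 (0.0848), and without CD34lo library 1 (0.0678) or 3 (0.0597). *Socs3*, the feedback inhibitor of gp130, had a log2 fold change of -0.01 (adjusted p = 0.987).

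Of 12 adaptors and kinases of the IL-1 and IL-17 receptors, 3 were higher in CD34hi, 1 was higher in CD34lo and 8 did not pass, with a median log2 fold change of 0.0055. Those that passed were 33.3% of the 12, near the 35.6% of all genes tested. *Irak3*, a kinase-dead inhibitor of IL-1 and Toll-like receptor signalling, had 462, 447 and 243 CPM in CD34hi and 52.0, 77.1 and 40.0 CPM in CD34lo (2.77, SE 0.31, adjusted p = 0.000201 by edgeR's quasi-likelihood test). *Irak4*, the kinase that starts the cascade, had a log2 fold change of 0.99 (adjusted p = 0.00421), and *Tollip*, another inhibitor, had 0.42 (adjusted p = 0.0374). *Tab1*, a subunit of the TAK1 kinase complex, was higher in CD34lo (-0.46, adjusted p = 0.0322). The *Tollip* call was lost without pool 1 or 2 and without any single library but CD34hi 3 (adjusted p between 0.0586 and 0.253), and that of *Tab1* without pool 1 or 2 and without library 1 or 2 of either population (between 0.0546 and 0.286). *Myd88*, the adaptor of the IL-1 and IL-33 receptors, had 163, 168 and 127 CPM in CD34hi and 131, 201 and 105 CPM in CD34lo and did not pass (0.07, adjusted p = 0.843). The decoy *Il1r2*, the inhibitor *Irak3* and the kinase *Irak4* were thus higher in CD34hi, while *Il1r1*, *Il1rap* and *Myd88* did not pass.

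Of 12 NF-kB response genes of IL-1 and IL-17, 25% passed, beside 35.6% of all genes tested. Of the 12, 3 were higher in CD34hi, 0 were higher in CD34lo and 9 did not pass, with a median log2 fold change of 0.79. At an unadjusted p under 0.05 in edgeR, 5 were higher in CD34hi and 2 in CD34lo, and the counts were 4 and 1 by limma-voom and 3 and 0 by DESeq2. *Ptgs2*, which encodes cyclooxygenase-2, had 886, 852 and 630 CPM in CD34hi and 162, 243 and 153 CPM in CD34lo (2.09, SE 0.22, adjusted p = 0.00014 by edgeR's quasi-likelihood test). The NF-kB inhibitor gene *Nfkbia* (0.93, adjusted p = 0.0206) and *Nfkbiz*, a coactivator of *Il6* (0.93, adjusted p = 0.0423), were also higher in CD34hi. The *Nfkbia* call was lost without pool 1 (adjusted p = 0.112), CD34hi library 2 (0.0707), CD34lo library 1 (0.0605) or CD34lo library 3 (0.0552). *Nfkbiz* lost its call without pool 1 or 3, CD34hi library 1 or 2, or CD34lo library 1 or 3 (adjusted p between 0.0655 and 0.179). With pool as a replicate block, 9 of the 12 passed, 7 of them higher in CD34hi and 2 in CD34lo, beside 40.5% of all genes tested. The 6 that were added are named here after their values were seen: *Cxcl2* (1.43 with the block, adjusted p = 1.72e-05), *Ccl2* (1.24, adjusted p = 4.5e-05), *Ccl7* (1.26, adjusted p = 0.000173) and *Zc3h12a* (0.71, adjusted p = 0.0015) were higher in CD34hi, and *Cxcl5* (-1.89, adjusted p = 0.0019) and *Saa3* (-2.31, adjusted p = 0.00851) were higher in CD34lo.

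Most of these genes and several of the 10 were lowest in mouse pool 3 in both populations, a pattern noticed after the values were seen. In pool 3, 6 of the 10 genes (*Il6*, *Lif*, *Osmr*, *Il4ra*, *Il1r1* and *Il17ra*) were at their lowest in both populations, beside 17.2% of all genes tested. *Il6* in pool 3 was at 0.475 of the mean of pools 1 and 2 in CD34hi and at 0.423 of it in CD34lo. *Lif* was at 0.471 and 0.342, and *Il17ra* at 0.630 and 0.506. Of the 12 NF-kB response genes, 11 were lowest in pool 3 in both populations, the exception being *Lcn2*, which was lowest in pool 1 in CD34hi. The acute-phase gene *Saa3*, at few counts, was at 0.352 and 0.0331 of the mean of the other pools and the chemokine gene *Cxcl5* at 0.177 and 0.424. Among the more abundant chemokine genes, *Cxcl2* was at 0.231 and 0.173, *Ccl2* at 0.330 and 0.324 and *Cxcl1* at 0.330 and 0.379. *Il13ra1* (1.04 and 1.09), *Il6st* (1.15 and 0.927) and *Il11ra1* (1.05 and 0.858) did not share this pattern, and *Il33* was low in pool 3 only in CD34hi (0.586 and 1.07). For *Il6* the spread between pools was therefore wider than the difference between the populations, whereas CD34hi exceeded CD34lo in each pool by between 1.07 and 1.75 on the log2 scale for *Lif* and by between 1.07 and 1.52 for *Il17ra*. Each pool is 1 group of 2 mice, and how the pools were sorted and handled is not given, so that animals, sort and handling cannot be told apart.

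**Figure D4:**
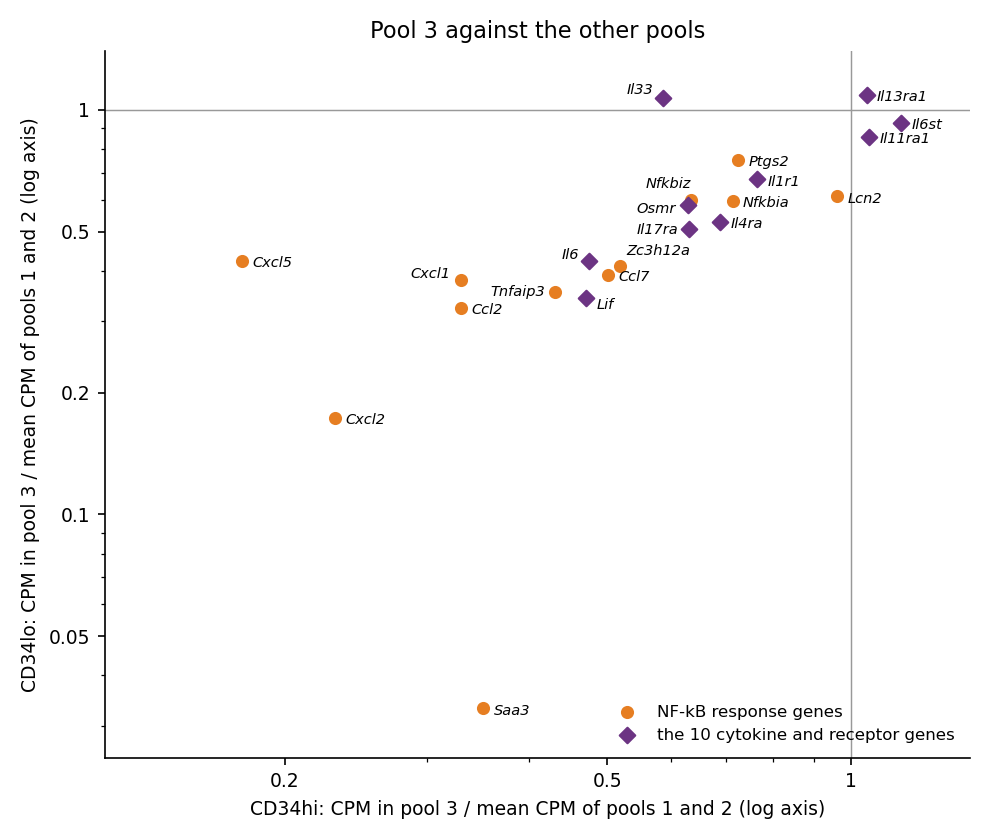
CPM in pool 3 divided by the mean CPM of pools 1 and 2, in CD34hi (x axis) and in CD34lo (y axis), both log axes, for the 10 genes (purple diamonds) and the NF-kB response genes (orange circles), with lines at 1. *Il6* and *Lif* lie at low left among the chemokine genes, while *Il13ra1* and *Il11ra1* lie near 1 on both axes.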

How the data were processed

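RNA of CD34hi and CD34lo fibroblasts was sequenced as TruSeq libraries on an Illumina NextSeq. Per the labels and the methods of the study, the authors used Rsubread 2.2.6 to count reads per gene on the GRCm38/mm10 genome (version also in the submitters' processing notes). The authors deposited whole-number counts without normalization, with a gene length that was used here for RPKM. The annotation, strand setting and treatment of reads with several positions are not given in the sources used here, so copies and antisense partners of a gene could share reads.

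Analysis used edgeR 4.0.16 in R 4.3.3: filterByExpr (15219 of 27179 genes), TMM (factors 0.967 to 1.04) and the quasi-likelihood test of population, with Benjamini-Hochberg adjustment over all genes tested at 0.05. The SE is the size of the log2 fold change over the square root of F. Symbols came from a RefSeq gene table for GRCm38.p6 (25275 genes matched). Depth was 28764779 to 52402410 counts, and 3 counts, a floor for counting error only, were 0.0572 to 0.104 CPM. Replicates had a common biological coefficient of variation of 19.7% (14.9% under the block). Libraries of a population differed by more than sampling noise (chi-square per degree of freedom 23.9 to 113).

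Libraries with the same number in the labels were taken to come from the same pool of mice, which the labels do not state. Their deviations from the population means had r of 0.279, 0.0844 and 0.243 across genes in the 3 pools. Alternatives were limma-voom (limma 3.58.1), DESeq2 1.42.0, upper-quartile or RLE scaling, no filter, a minimum of 10 counts per library, the replicate block, each pool or library left out, an adjusted p-value under 0.01, and sums of the *Il11ra* copies (the sum with *Gm13305* was chosen after seeing the data). The fit was tested on simulated data. The 10 genes and all lists were chosen with earlier results of these data known. Beside the 10, the text names up to 4 passing genes of each list with the largest change, the partner subunits and transducers of the receptors, *Il11ra2*, and the 3 genes most like each cytokine among 8872 genes with a symbol and a mean log2 CPM of at least 3. Others, *Gm13305* included, were named after their values were seen, as were those given as too low to test or as not passing. Values of a few list genes are left out of the text.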

Additional observations from a re-analysis of the deposited data

How the results depend on the processing

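Under the alternatives, the fold changes of the 10 genes had the same sign and call in 152 cases, lost the threshold in 11, gained it in 3 and changed sign in 6. The 11 lost calls were those of *Lif*, *Il4ra* and *Il17ra* without pool 1 or without a single library of pool 1, 2 or 3, as given in the report. The 3 gained calls were all for *Il11ra1*: with upper-quartile normalization (-0.40, adjusted p = 0.0422), and with the replicate block, in edgeR (-0.34, adjusted p = 0.0483) or limma-voom (-0.34, adjusted p = 0.0363). The changes of sign were in genes near 0 that did not pass: *Il6* had -0.077 without pool 1, -0.14 without CD34hi library 1 and -0.23 without CD34lo library 3, and *Il1r1* had 0.12 without pool 2, 0.083 without CD34hi library 3 and 0.16 without CD34lo library 2. Leaving out 1 pool or library gave log2 fold changes of 2.77 to 3.23 for *Il33*, 3.81 to 4.0 for *Il13ra1*, 1.01 to 1.76 for *Lif*, 0.63 to 1.15 for *Il4ra*, 1.02 to 1.55 for *Il17ra*, -0.23 to 0.38 for *Il6*, -0.20 to 0.16 for *Il1r1*, 0.096 to 0.40 for *Il6st*, 0.055 to 0.46 for *Osmr* and -0.44 to -0.23 for *Il11ra1*.

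Of the counts of genes passed, 219 stayed within 1.5 times the count of the report and 33 moved further. At an adjusted p under 0.01, 3444 of all genes, 3 of the 10 genes, 1 IL-17 gene, 2 JAK-STAT genes, 2 adaptors and 1 NF-kB response gene passed. The NF-kB response genes that passed numbered 5 with limma-voom, 5 without a filter, and 9 under the replicate block with either edgeR or limma-voom. With at least 10 counts in every library, 1 IL-6 family ligand passed, since the low genes were then not tested. Leaving out 1 pool or library gave 3468 to 5236 of all genes, 2 to 5 of the 10 genes, 0 to 1 type 2 cytokine, 1 to 3 type 2 receptor subunits, 0 to 4 IL-17 genes, 2 to 4 adaptors and 1 to 6 NF-kB response genes. Except for fewer samples or genes, the cause of these moves was not tested. The block changed no other call of the 10 genes. With 3 libraries per population, differences such as those of *Osmr* and *Il6st* were not detectable beyond the spread between libraries.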
